A study of Mus musculus with 18 samples.

Results

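A set of enzymes for the O-mannose glycans of dystroglycan, among them its laminin-binding glycan, was followed in RNA-seq of mouse quadriceps. The set is encoded by 8 genes chosen by name, Pomt1, Pomt2, Pomgnt1, Pomgnt2, B3galnt2, Pomk, B4gat1 and Gmppb, out of 48709 genes listed. Other genes of the pathway, among them Large and Tmem5, are given further below. The 18 libraries were each from 1 mouse. Whole quadriceps was taken from C57BL/6J mice, called WT here, and from dyW mice of the strain B6.129S1(Cg)-Lama2tm1Eeng/J, which model the congenital muscular dystrophy LAMA2-CMD. The labels call the mutants hemizygous and describe the gene for laminin alpha 2, Lama2, as knocked out. An untreated cohort labelled 5 weeks old held 3 WT and 4 dyW mice. A treatment cohort labelled 3 weeks old held 3 WT and 3 dyW mice given PBS, the vehicle, and 2 WT and 3 dyW mice given TD139, an inhibitor of galectin-3. The protocol of all samples gives 5 weeks as the age at which muscle was taken, so the age in the treatment cohort is not settled by the labels. Each group held both sexes, with 1 female mouse in each. Whether WT mice were littermates of dyW mice, and the dose and schedule of TD139, are not given in the sources used here.

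Dystroglycan is a laminin receptor of the muscle fibre surface, and its extracellular subunit binds laminin only through a sugar chain, matriglycan, that is carried on O-linked mannose. The chain is assembled stepwise in the endoplasmic reticulum and Golgi: mannose is attached, the mannose is extended and phosphorylated, ribitol phosphate units are added, and matriglycan is polymerised on top. Mutations in the human orthologues of these enzyme genes cause dystroglycanopathies, muscular dystrophies that can include brain and eye disease. The gene targeted in dyW mice, Lama2, encodes laminin alpha 2, the main laminin partner of that chain in muscle. Protein was not measured here.

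The libraries held 15814395 to 45249183 exon reads, and the lowest total was in the dyW PBS group. Lama2, the gene targeted in dyW, was at 4.75 ± 0.28 RPKM (reads scaled to exon length and library total, as deposited; SD, n = 3) in untreated WT and at 0.707 ± 0.119 (n = 4) in untreated dyW. Its log2 fold change was −3.29 in the untreated cohort, −2.67 under PBS and −2.17 under TD139, each past an adjusted p of 0.05 by edgeR's quasi-likelihood test with Benjamini-Hochberg adjustment over all genes tested, the threshold used throughout. All 7 skeletal muscle fibre markers examined were read in every group, and in whole muscle a smaller share of one cell type and less RNA per cell cannot be told apart. The 10 genes with the most reads took 23.6% to 28.0% of exon reads in untreated WT and 15.3% to 20.4% in untreated dyW, so the scaling of the libraries bears on every comparison between these groups. Levels are therefore given both as deposited RPKM and after TMM scaling, which divides each library by a factor computed from the bulk of its genes.

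All 8 genes were read in every library, the fewest reads being 139 for Gmppb in 1 library, and all 8 passed the filter on low counts in each fit. Compared per length within untreated WT muscle, B3galnt2 had the highest level at 28.8 ± 2.89 RPKM (n = 3). B4gat1 at 10.04 ± 0.83 and Pomgnt1 at 9.01 ± 0.35 came next and overlapped. Pomgnt2 followed at 4.88 ± 0.46, Pomk at 3.32 ± 0.13 and Pomt1 at 2.24 ± 0.24, each apart from the next gene in the order. Pomt2 at 1.69 ± 0.30 and Gmppb at 1.58 ± 0.27 were lowest and overlapped. In untreated dyW muscle this order had shifted at the top: B4gat1 at 14.4 ± 2.56, B3galnt2 at 13.4 ± 1.34 and Pomgnt1 at 11.4 ± 1.15 RPKM (n = 4 each) had overlapping ranges. In the 4 groups of the treatment cohort B3galnt2 again stood alone above the other genes.

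**Figure D1:**
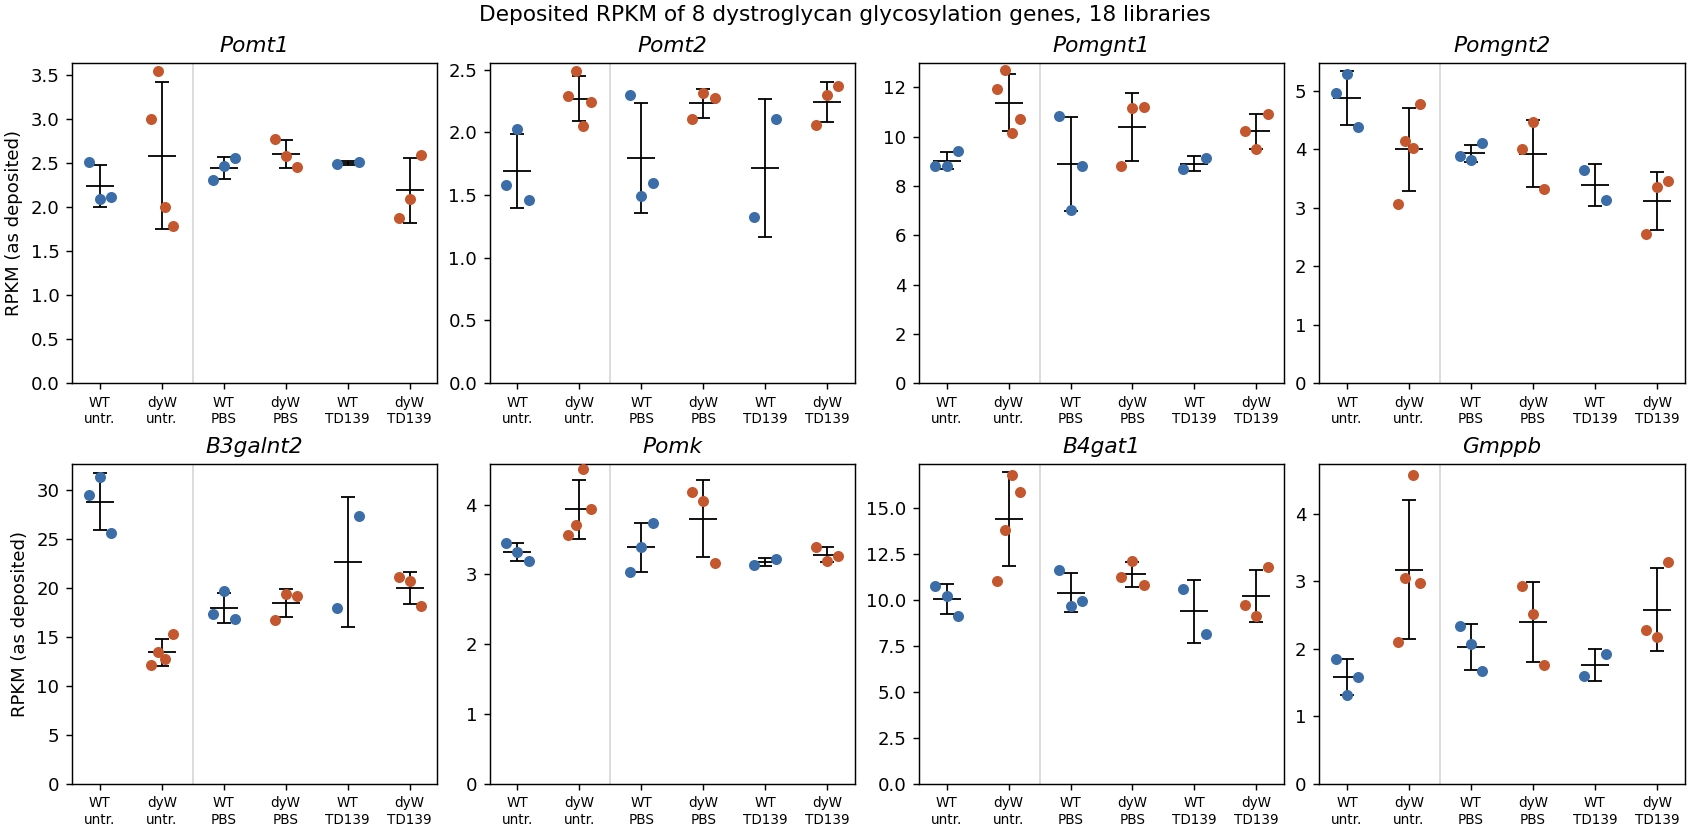
Deposited RPKM (y axis, from 0) of the 8 genes in each of the 18 libraries, by group; points are libraries, blue for WT and orange for dyW, and bars are the mean ± SD. B3galnt2 lies between 25.7 and 31.3 in untreated WT and between 12.2 and 15.3 in untreated dyW, while the groups of the treatment cohort lie between 16.8 and 27.3.

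The first question was how these enzyme genes differ between diseased and healthy muscle without treatment. By edgeR after TMM scaling, transcripts of B3galnt2, Pomgnt2 and Pomk were lower in untreated dyW than in untreated WT. Of the 8 genes, 0 were called higher. The direction of Pomk and of most other members depended on this scaling, as given below. B3galnt2 had a log2 fold change of −1.65 (SE 0.14), Pomgnt2 of −0.84 (SE 0.16) and Pomk of −0.31 (SE 0.11). Across all 14846 genes tested 25.1% were lower, 24.7% were higher and 49.8% changed in either direction, so 3 of 8 is read against a background in which about as large a share of all genes moved. The same 3 calls were made by DESeq2, and the 3 genes were also the only members with an unadjusted p under 0.05, which 8431 of the 14846 genes tested had. The median log2 fold change of the 8 genes was −0.26, beside 0.03 for all genes tested.

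B3galnt2 encodes the enzyme that adds N-acetylgalactosamine to the N-acetylglucosamine placed by POMGNT2. It lies on chr13:13954674-13999068 (mm10, plus strand; ENSMUSG00000039242). Its deposited RPKM was 29.5, 31.3 and 25.7 in the untreated WT libraries and 12.2, 13.4, 12.8 and 15.3 in the untreated dyW libraries. Every dyW library was below every WT library, and the values within each group were close to one another. After TMM scaling the means were 36.9 in WT and 11.6 in dyW. The fitted difference was 3.14-fold (95% interval of the log2 fold change −1.96 to −1.34, adjusted p = 0.000136), and it passed in all 15 alternatives tried, from −1.72 to −1.05. In the authors' deposited table the log2 fold change was −1.68 with an FDR-adjusted p of 9.01e-21. In the GENCODE M21 annotation 5.13% of the exon bases of B3galnt2 lie opposite exons of the tubulin cofactor gene Tbce, whose own log2 fold change was −0.32 (adjusted p = 0.0486). That annotation gives B3galnt2 6335 exon bases and the counted gene model 3681, so the share of counted bases is not known.

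Pomgnt2 encodes the enzyme that adds N-acetylglucosamine to O-mannose at the sites where matriglycan will be built. It lies on chr9:121981606-121996026 (mm10, minus strand; ENSMUSG00000066235). After TMM scaling it was at 5.79, 7.13 and 5.79 in untreated WT and at 2.82, 3.61, 3.18 and 4.17 in untreated dyW. The scaled groups did not overlap, whereas on deposited RPKM the highest dyW library, at 4.77, lay above the lowest WT library, at 4.39. The fold change was 1.79-fold (95% interval of the log2 value −1.21 to −0.47, adjusted p = 0.00325). It held in 13 of 15 alternatives. It was lost in the pair of limma fits on log2 RPKM without TMM scaling, at −0.29 (adjusted p = 0.148) with a pseudocount of 0.1. The authors' deposited table lists −0.87 with an FDR-adjusted p of 0.000123.

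Pomk encodes the kinase that phosphorylates the mannose of this glycan, a step needed before ribitol phosphate can be added. Its TMM-scaled level was 4.02, 4.47 and 4.21 in untreated WT and 3.28, 3.24, 3.57 and 3.44 in untreated dyW, without overlap. The difference of −0.31 (95% interval −0.55 to −0.07, adjusted p = 0.0393) lay close to the threshold. It was lost when any 1 of the 7 libraries was left out (adjusted p from 0.0529 to 0.12), and on deposited RPKM the gene was higher in dyW, at 3.93 ± 0.42 (n = 4) against 3.32 ± 0.13 (n = 3). In the authors' deposited table the value was −0.33 with an FDR-adjusted p of 0.179, which does not pass.

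Pomt1 and Pomt2 encode the subunits of the O-mannosyltransferase complex that starts every chain, and neither passed the test. Pomt1 had a log2 fold change of −0.33 (95% interval −0.90 to 0.24, adjusted p = 0.301). Its TMM-scaled level was 2.93, 2.82 and 2.79 in untreated WT, and 2.76, 3.09, 1.58 and 1.55 in untreated dyW. Thus 1 dyW library lay above all WT values, 1 just below them and the other two well below. Pomt2 had a value of −0.13 (95% interval −0.53 to 0.27, adjusted p = 0.572). Pomgnt1, whose product extends O-mannose on sites that do not carry matriglycan, was at −0.21 (95% interval −0.53 to 0.11, adjusted p = 0.235). B4gat1, which adds the glucuronic acid that primes matriglycan, was at −0.04 (95% interval −0.34 to 0.26, adjusted p = 0.828). Gmppb encodes the subunit that makes GDP-mannose, the mannose donor, and had a positive value of 0.45 (95% interval −0.04 to 0.94, adjusted p = 0.114). Its TMM-scaled level was 2.16, 1.77 and 2.09 in WT and 1.93, 2.66, 3.63 and 2.60 in dyW, so that 1 dyW library lay among the WT values. Without that library, dyW replicate 1, Gmppb passed at 0.60 (adjusted p = 0.027).

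Gmppb and B4gat1 carry a limit of annotation. Of the exon bases of Gmppb (chr9:108049242-108052801, mm10), 33.6% lie opposite exons of Rnf123, a ubiquitin ligase gene on the other strand that fell (log2 fold change −1.23, adjusted p = 0.000638) and had 94542 reads over the 18 libraries. The library kit keeps strand, but whether the counting used it is not given in the sources used here, and without it reads of both genes cannot be told apart. For B4gat1 (chr19:5038826-5041134, mm10), 85.3% of exon bases are shared with AC124502.3, a gene of the same strand in GENCODE M21 with no row among the listed genes. Shares are of M21 exon bases, and the counted models of B4gat1 (2035 bases against 2306 in M21) and Pomt2 (5059 against 7954) differ from these. Pomgnt1 shares 11.7% of its exon bases with Lurap1 on the opposite strand, which fell (−0.86, adjusted p = 0.00885). At least 99.8% of the reads of each of the 8 genes were counted as unique.

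The direction of most of these values depends on the scaling. On deposited RPKM, Pomk, Pomgnt1, Pomt2, B4gat1 and Gmppb were higher in every untreated dyW library than in every WT library, 5 of 8 genes, beside 51.3% of all genes tested. Only B3galnt2 was lower without overlap, beside 9.94% of all genes. After TMM scaling B3galnt2, Pomgnt2 and Pomk were lower without overlap, beside 28.0% of all genes, and 0 of 8 were higher, beside 25.9%. A limma fit on log2(RPKM + 0.1) put the median over all genes at 0.51 instead of 0.03, with 51.4% of genes called higher and 8.71% lower. In that fit B3galnt2 was lower (−1.10, adjusted p = 0.000274), and Gmppb (0.92), B4gat1 (0.50), Pomt2 (0.41) and Pomgnt1 (0.33) were higher. Set against its own median of all genes, each member lay close to its value under TMM: B3galnt2 at −1.61 and −1.68, Pomgnt2 at −0.80 and −0.87, Pomk at −0.28 and −0.34, and Gmppb at 0.41 and 0.42. B3galnt2 was the only member called lower on both scales.

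**Figure D2:**
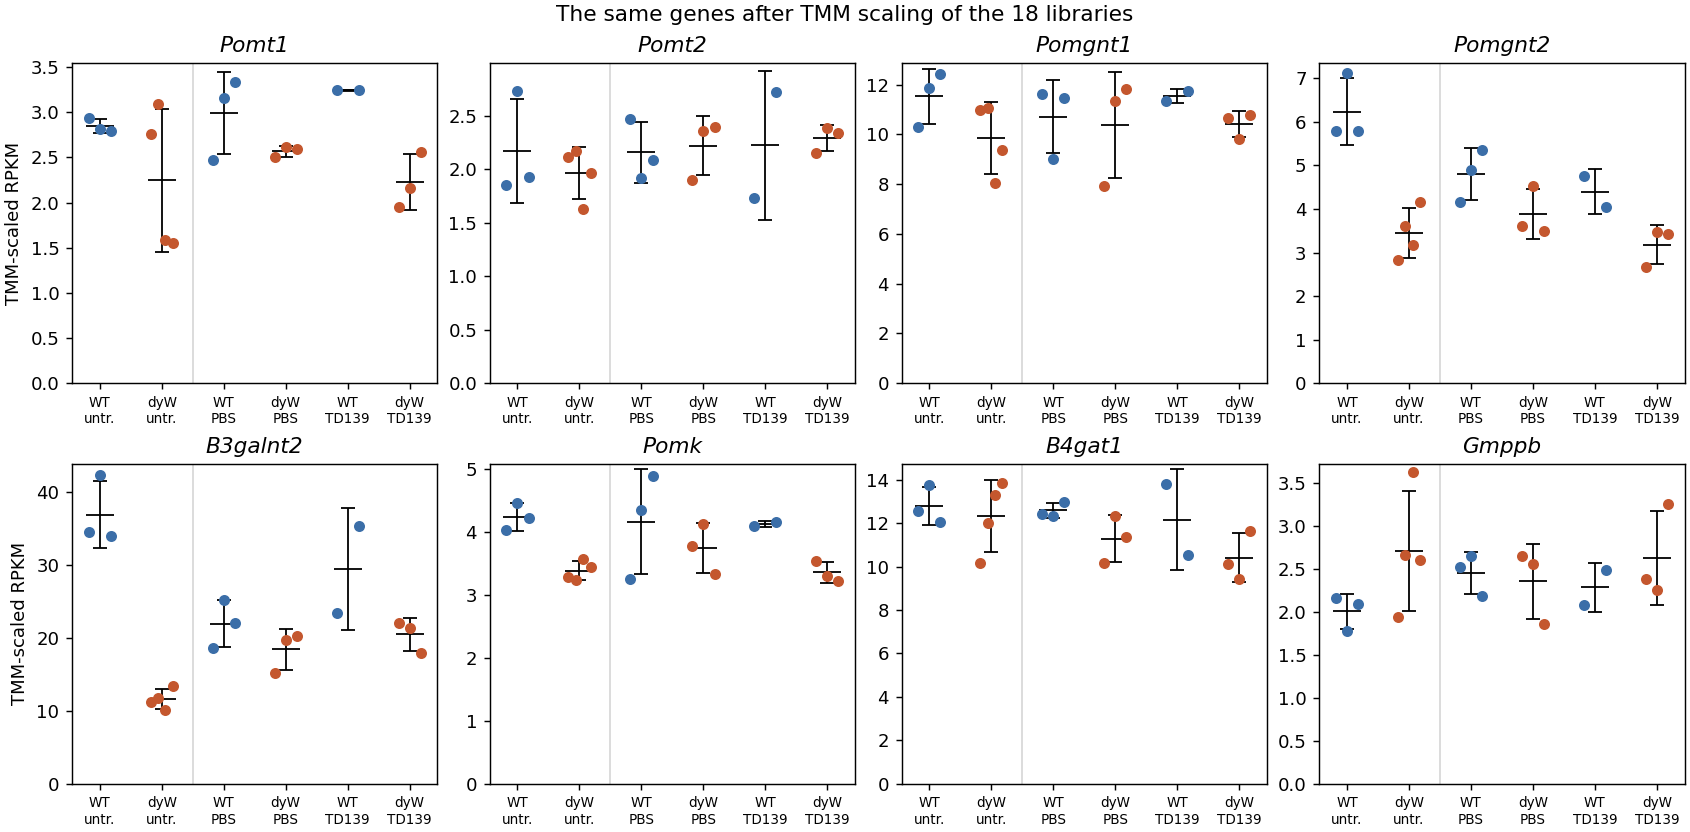
TMM-scaled RPKM, that is exon reads scaled to exon length and to the TMM-scaled library total (y axis, from 0) of the 8 genes in each library; points are libraries, blue for WT and orange for dyW, and bars are the mean ± SD. Pomgnt2 spans 5.79 to 7.13 in untreated WT and 2.82 to 4.17 in untreated dyW, and Pomt1 in untreated dyW splits into a higher and a lower pair.

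The RefSeq promoter table (GRCm38.p6) held 5 of the 8 genes. The 250 bases before the start are shown for Pomgnt2, a member that fell, and for B4gat1, a member that did not pass after TMM scaling. In the limma fit on log2(RPKM + 0.1), B4gat1 was higher in untreated dyW (0.50, adjusted p = 0.0253). Capitals mark matches on either strand to any of 4 motifs. The GC box was searched as GGGCGG. The box named CCAAT was searched by those letters. For the TATA box the letters were TATAAA. The E-box was searched as CANNTG, where N is any base. No motif overlaps another in these windows. The Pomgnt2 window is chr9:121996027-121996276 on the minus strand, and the B4gat1 window is chr19:5038576-5038825 on the plus strand.
Pomgnt2: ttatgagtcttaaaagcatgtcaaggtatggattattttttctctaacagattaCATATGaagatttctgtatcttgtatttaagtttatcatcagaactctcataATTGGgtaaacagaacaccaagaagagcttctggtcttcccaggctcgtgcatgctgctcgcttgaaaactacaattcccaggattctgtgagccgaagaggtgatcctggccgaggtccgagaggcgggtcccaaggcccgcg
B4gat1: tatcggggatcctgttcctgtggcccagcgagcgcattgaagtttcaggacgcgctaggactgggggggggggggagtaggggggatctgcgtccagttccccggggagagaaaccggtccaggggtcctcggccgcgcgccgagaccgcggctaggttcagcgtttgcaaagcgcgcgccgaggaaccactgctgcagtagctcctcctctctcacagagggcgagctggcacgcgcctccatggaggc
The Pomgnt2 window had a GC content of 44.4% and held 1 E-box and 1 CCAAT box, the latter read on the opposite strand. The B4gat1 window had a GC content of 67.2% and matched none of the 4 motifs. Other members that did not pass also held matches. The Pomt2 window held 1 E-box, 2 CCAAT boxes and 1 GC box, and the Pomt1 window 1 E-box. Pomgnt1 had a window with 5 GC boxes and another with 1 TATA box and 1 E-box. Whether motif content goes with the changes was not tested. Over 32851 promoter windows of this length the median GC content was 52.4%, and 66.2% held an E-box, 33.8% a CCAAT box, 32.7% a GC box and 12.4% a TATA box. A match is a run of letters and is not by itself a binding site.

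The wider pathway moved in both directions in untreated dyW muscle. Of 41 other genes of O-mannose glycan assembly and sugar supply, 36 were tested, and 7 rose and 6 fell, with a median log2 fold change of 0.0048, beside the 24.7% of all genes tested that rose and the 25.1% that fell. Among the genes reported of the ribitol phosphate and matriglycan steps, Tmem5, now named Rxylt1, which adds xylose, fell (−0.51, SE 0.11, adjusted p = 0.00582). Tmem5 had a value of 0.03 in the fit on log2(RPKM + 0.1), so its direction rests on TMM scaling. Large, the matriglycan polymerase gene, at −0.09 (adjusted p = 0.525), and Ispd, which makes the ribitol donor, at 0.13 (adjusted p = 0.579), did not pass. Dag1, the gene of dystroglycan itself, fell by 0.71 on the log2 scale (SE 0.23, adjusted p = 0.0293), from 65.7 ± 3.39 TMM-scaled RPKM in WT (n = 3) to 39.7 ± 11.97 in dyW (n = 4). That call was lost without any 1 of the 3 WT libraries or without dyW replicate 3 or 4 (adjusted p from 0.0589 to 0.0837), and it was −0.21 (adjusted p = 0.381) on log2(RPKM + 0.1).

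Among the genes that supply the mannose donor, those that passed were higher in dyW. Of 9 genes for dolichol phosphate mannose, the donor used by the POMT complex, 4 rose and 0 fell, beside the same background. These included Srd5a3 (1.25, SE 0.22), which makes dolichol from polyprenol, Mpdu1 (0.93, SE 0.24), needed for use of the donor, and Dhdds (0.49, SE 0.12), of dolichol chain synthesis. Of 4 genes for GDP-mannose, the phosphomannomutase gene Pmm1 rose (0.89, SE 0.13). Of 10 genes for UDP-sugars, Ugdh rose (0.50, SE 0.12) and 2 fell, among them Gfpt1 (−1.27, SE 0.19), the entry enzyme of the hexosamine pathway. The Ugdh call was lost when the spread was estimated over all 18 libraries (0.48, adjusted p = 0.0906). The calls of Dpm3, the fourth dolichol gene, and of the transporter gene Slc35d1 were each lost when any 1 of 4 libraries was left out (adjusted p up to 0.0924 and 0.0922). Of 4 tested genes for other modifiers of such glycans, the galactosyltransferase gene B4galt2 rose (0.72, SE 0.16). Of 5 O-mannosyltransferase genes that serve other proteins, Tmtc1 (−2.61, SE 0.18) and Tmtc3 (−1.19, SE 0.27), which act on cadherins, fell.

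**Figure D3:**
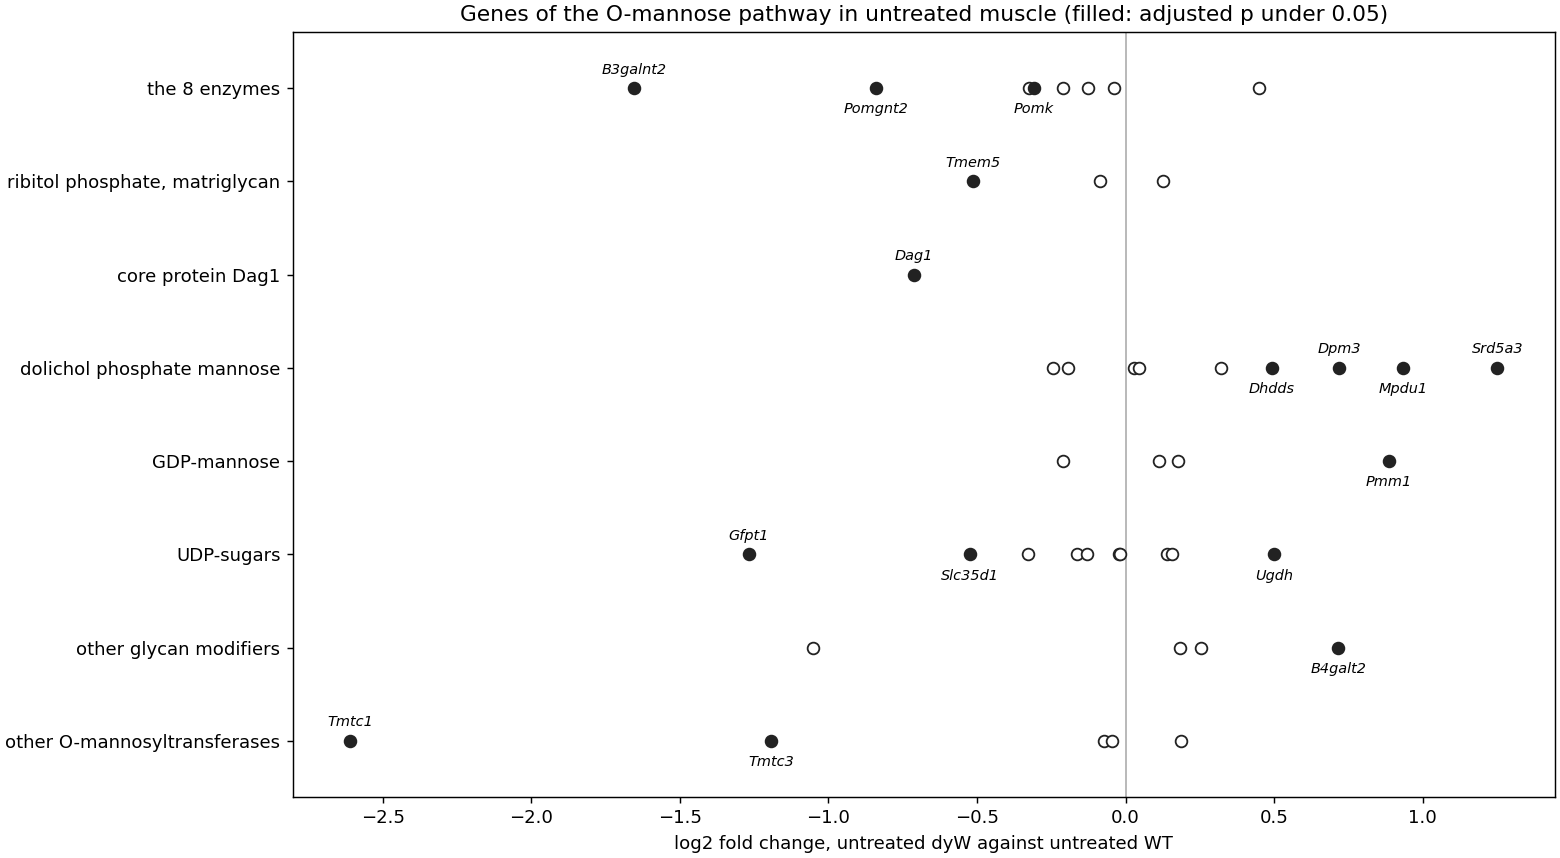
Log2 fold change in untreated dyW against untreated WT (x axis) for the 8 enzyme genes and the 36 other pathway genes tested, in rows by role; each point is a gene, filled and named where the adjusted p was under 0.05. In the row of ribitol phosphate and matriglycan steps Tmem5 fell, and the row of dolichol phosphate mannose holds 4 that rose.

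Markers of cells in the tissue also differed between untreated WT and dyW, beside 24.7% of all genes tested that rose and 25.1% that fell. Of the 7 muscle fibre markers 5 fell, and their summed TMM-scaled level was 48300 to 72200 in untreated WT and 25500 to 35100 in untreated dyW. All 6 markers of regenerating fibres rose, from sums of 8.43 to 20.4 to sums of 143 to 236. Of 8 macrophage markers 7 rose, from sums of 41.5 to 61.9 to sums of 215 to 315, and 4 of 6 fibroblast and 5 of 6 Schwann cell markers rose. No marker of these 5 lists was at 0. In other lists, 2 of 5 satellite cell markers rose and 2 fell, and 4 of 5 smooth muscle and pericyte markers rose and 1 fell. Of 5 endothelial markers 1 rose, as did 2 of 5 tendon and cartilage and both tested neutrophil markers. For adipocytes, T and B cells, red blood cells and keratinocytes 0 passed. The part of these cell types in the differences of the 8 genes was not tested.

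The second question was whether the same differences are seen between genotypes in mice given PBS. By edgeR, 0 of the 8 genes passed, beside 2.68% of 15331 genes tested, and 0 had an unadjusted p under 0.05 or passed in DESeq2. The log2 fold changes ran from −0.30 for Pomgnt2 (95% interval −0.69 to 0.09) to 0.04 for Pomt2. B3galnt2 was at 17.4, 19.7 and 16.8 RPKM in WT PBS and at 16.8, 19.4 and 19.2 in dyW PBS, and the groups overlapped. Its log2 fold change, fitted after TMM scaling, was −0.25 (SE 0.20, 95% interval −0.68 to 0.18, adjusted p = 0.598). Without that scaling, limma on log2(RPKM + 0.1) gave B3galnt2 a value of 0.04 (adjusted p = 0.902). After TMM scaling only B4gat1 was lower in every dyW PBS library than in every WT PBS library, at 10.17, 12.33 and 11.37 against 12.43, 12.35 and 12.99, beside 6.56% of all genes. In these groups 0 of 7 muscle fibre markers passed, while 5 of 6 regenerating fibre and 7 of 8 macrophage markers rose. The Schwann cell markers summed to between 33.0 and 591 RPKM in the WT PBS libraries, with 1 library, replicate 1, far above the others; without it B3galnt2 was at −0.36. Leaving out each library in turn gave values of −0.36 to −0.13 for B3galnt2 and 0 calls among the 8 genes. Of 38 other pathway genes tested, 0 passed by edgeR or DESeq2, and 1 had an unadjusted p under 0.05.

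The difference between these genotype effects was tested directly over all 18 libraries. B3galnt2 was the 1 member that passed, beside 1.72% of 15771 genes in either direction and 1.2% with a higher value: its dyW effect was higher by 1.41 on the log2 scale (SE 0.25, 95% interval 0.89 to 1.93, adjusted p = 0.0266) in the PBS cohort than in the untreated cohort. The mean levels of both genotypes differed between the cohorts. TMM-scaled B3galnt2 was at 36.9 ± 4.65 in untreated WT and 21.9 ± 3.27 in WT PBS (n = 3 each), and at 11.6 ± 1.35 in untreated dyW (n = 4) and 18.4 ± 2.81 in dyW PBS (n = 3). The WT mean was lower and the dyW mean higher under PBS than in untreated mice. Levels within a genotype were not tested between the cohorts. The share of all genes that shift in this way was not counted. The call was lost when any 1 of 7 of the 13 libraries was left out: untreated WT replicate 2 or 3, untreated dyW replicate 3 or 4, WT PBS replicate 1, or dyW PBS replicate 2 or 3. The adjusted p was then 0.0504 to 0.0806, and the value stayed between 1.25 and 1.49. Pomgnt2 was at 0.55 (95% interval 0.05 to 1.06, adjusted p = 0.184), and the other 6 genes ran from −0.49 for Gmppb to 0.18 for Pomt2. Of the other pathway genes only Tmtc1 passed by edgeR, at 2.07, and DESeq2 called 2. The cohorts differ at least in age label and in whether vehicle was given. Any difference in handling or sequencing would also go with the cohort, and these cannot be told apart.

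The study then asked what TD139 changes in dyW muscle. Against dyW PBS, 0 of the 8 genes passed by edgeR, beside 0.0% of all genes tested: 0 genes were called, 583 had an unadjusted p under 0.05, and DESeq2 called 4, none of them a member. No member had an unadjusted p under 0.05. B3galnt2 was at 21.2, 20.7 and 18.1 RPKM in dyW TD139 and overlapped the dyW PBS values (log2 fold change 0.15, 95% interval −0.28 to 0.58). The values ran from −0.29 for Pomgnt2 (95% interval −0.68 to 0.10) to 0.16 for Gmppb (95% interval −0.29 to 0.61). Pomgnt2 was the 1 gene whose TMM-scaled levels did not overlap, at 2.66, 3.47 and 3.42 under TD139 and 3.62, 4.54 and 3.49 under PBS, beside 7.08% of all genes lower in that way.

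In WT muscle TD139 was compared with PBS over 2 and 3 libraries. Again 0 of the 8 genes passed by edgeR, beside 0.0% of all genes, with 304 genes at an unadjusted p under 0.05, none of them a member, and 3 calls by DESeq2, also outside the members. The largest value was that of B3galnt2, 0.42 (95% interval −0.06 to 0.90, unadjusted p = 0.0789). It rested on libraries that stood apart, at 17.96 and 27.33 RPKM, of which the lower lay within the WT PBS range. Leaving out either TD139 library moved it between 0.09 and 0.69. The other 7 genes lay between −0.13 and 0.12. The difference of the TD139 effects between genotypes called 0 genes by edgeR (0.0%), with 294 at an unadjusted p under 0.05 and 1 call by DESeq2, none of them a member. For B3galnt2 it was −0.27 (95% interval −0.91 to 0.38).

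With both genotypes under TD139, 0 of the 8 genes passed by edgeR or DESeq2, beside 1.04% of 15331 genes by edgeR. An unadjusted p under 0.05 was found for 3 of the 8, and for 2430 of the 15331 genes. Pomt1 was at −0.54 (SE 0.17, unadjusted p = 0.00856, adjusted p = 0.156), with TMM-scaled levels of 3.24 and 3.24 in WT and 1.96, 2.16 and 2.56 in dyW. All dyW values were below both WT values. B3galnt2 was at −0.52 (SE 0.22, adjusted p = 0.27) and Pomgnt2 at −0.47 (SE 0.20, adjusted p = 0.279). After TMM scaling 5 of 8 genes, Pomt1, Pomgnt1, Pomgnt2, Pomk and B3galnt2, were lower in every dyW library, beside 17.8% of all genes. On deposited RPKM 0 were lower in that way, beside 4.25%, and 2, Pomgnt1 and Gmppb, were higher, beside 47.2%. The PBS, TD139 and treatment comparisons share libraries, so their values are not independent of one another. Of the other pathway genes 0 passed by edgeR or DESeq2 in the TD139 comparisons, with 0 to 1 at an unadjusted p under 0.05.

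**Figure D4:**
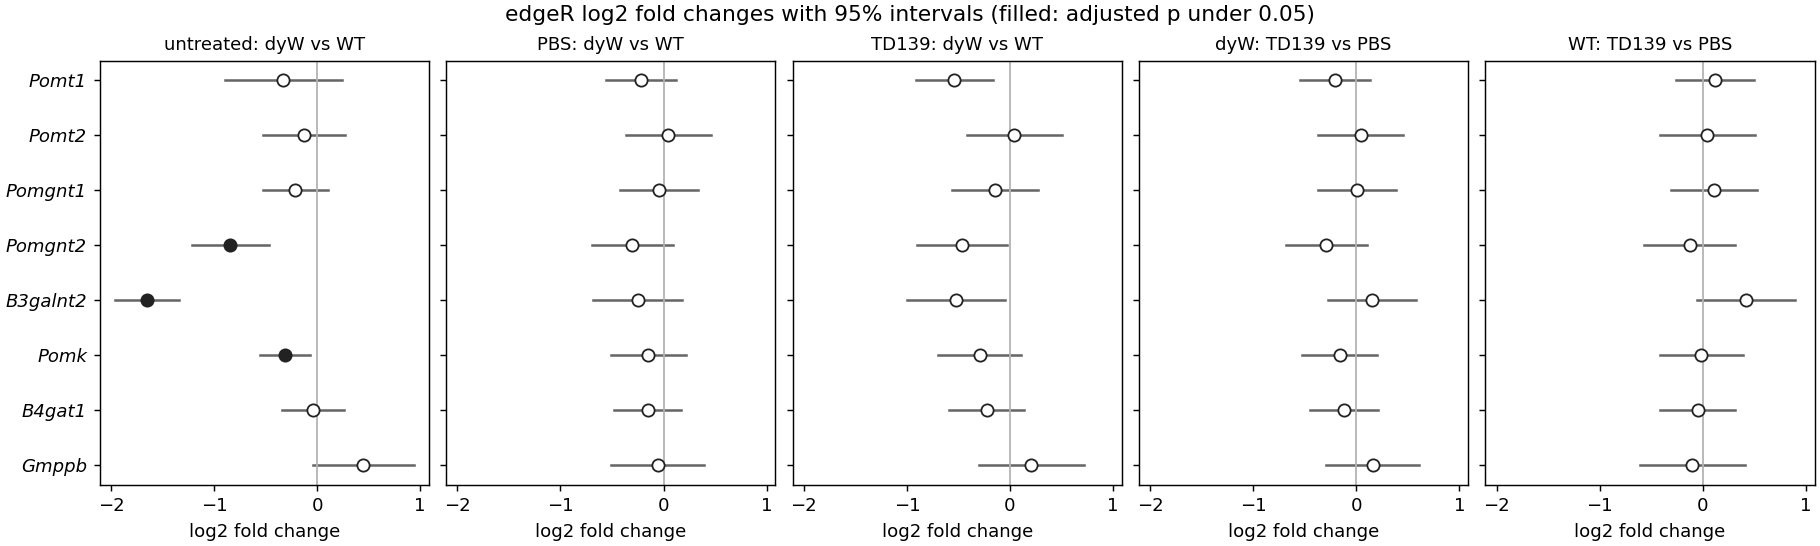
Fitted log2 fold change (x axis) of the 8 genes in 5 comparisons, with 95% intervals; filled points passed an adjusted p under 0.05. Filled points appear only in untreated muscle, for Pomgnt2, B3galnt2 and Pomk, and the intervals of all 8 genes include 0 in the PBS comparison and in both comparisons of TD139 with PBS.

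The 8 genes did not share 1 pattern over the libraries. Likeness was taken as the root mean square difference between centred log2 TMM-scaled counts over the 18 libraries, given as a description without a test. The closest pair was Pomt2 and Pomgnt1 at 0.18, next Pomk and B4gat1 at 0.19, and the farthest was B3galnt2 and Gmppb at 0.74. The subunit genes Pomt1 and Pomt2 were 0.34 apart. B3galnt2 varied most around its own mean, by 0.58, and B4gat1 least, by 0.17. Among 10014 genes the ones nearest to B3galnt2 were Dcun1d2 at 0.17 and Lyrm9 at 0.18, beside a median of 0.61. Nearest to Pomgnt2 were Laptm4b and Fez2, both at 0.18, and nearest to Gmppb were Creld2 at 0.16 and Hpf1 at 0.17. Pomk lay nearest to Wdr18 at 0.08 and Lrpap1 at 0.09, and B4gat1 to Gtpbp3 at 0.08 and Spns1 at 0.10. For Pomt1 these were Scamp2 at 0.16 and Selo at 0.18, for Pomt2 Mfsd14a at 0.13 and Brd3 at 0.14, and for Pomgnt1 Emc3 and Dcaf12, both at 0.10. The distances take in differences between groups and cohorts that many genes share.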

How the data were processed

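RNA of whole quadriceps from 18 mice was sequenced from a stranded mRNA kit as read pairs, per the labels' protocols, and mapped to mm10, per the submitters' processing notes; the aligner, the counter and its strand setting are not given in the sources used here. Per the file headers, the authors deposited total and unique exon read counts per gene and RPKM values. Per gene, the authors' deposited tables of comparisons hold log2 fold changes with each p-value, raw and FDR-adjusted, and are used only where named.

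Total exon reads were tested with edgeR 4.0.16 (R 4.3.3; filterByExpr with a minimum count of 10 and total of 15, TMM, quasi-likelihood F-test, Benjamini-Hochberg over all genes tested, threshold 0.05). The untreated comparison used its 7 libraries, the 4 contrasts of the treatment cohort and their interaction used 11, and the difference between cohorts used all 18. Levels after scaling used the TMM factors of the 18-library fit. Alternatives were DESeq2 1.42.0 and its size factors, no filter, unique reads, sex as a term, limma 3.58.1 on log2(RPKM + 0.1) and log2(RPKM + 1), shared or separate spread, and each library left out. The code was tested on simulated counts. Reads numbered 139 or more per member and library, which gives a counting error of at most 8.48%. Each library comes from its own mouse by the labels' animal numbers.

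The members and the pathway and marker lists were chosen with earlier results of these data known, and 3 genes of the pathway lists are not reported here. Named were the 8 members, Lama2, up to 3 pathway genes of smallest p per list (the pathway plot names every gene that passed), genes that share exons with a member, and the 2 nearest genes by likeness with a mean of at least 1 RPKM.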

Additional observations from a re-analysis of the deposited data

Results flagged for a closer look

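B3galnt2 was marked because its dyW effect differed between the cohorts by the test of the difference itself: 1.41 on the log2 scale (adjusted p = 0.0266, edgeR), from −1.65 in untreated mice to −0.25 under PBS. Its TMM-scaled level was 34.4, 42.2 and 33.9 in untreated WT and 18.6, 25.2 and 22.0 in WT PBS, against 11.2, 11.7, 10.1 and 13.4 in untreated dyW and 15.2, 19.7 and 20.3 in dyW PBS. The mean was higher in untreated WT than in WT PBS, and lower in untreated dyW than in dyW PBS. These shifts within a genotype were not tested, and the share of all genes with such shifts was not counted. The call was lost without any 1 of 7 of the 13 libraries. Age label, vehicle and any difference in handling or sequencing go with the cohort and cannot be told apart.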

How the results depend on the processing

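B3galnt2 in untreated muscle kept its direction and call in all 15 alternatives, and Pomgnt2 in 13. Without TMM scaling, in limma on log2(RPKM + 0.1) and log2(RPKM + 1), 5 and 5 members were called in place of 3, and the direction turned for Pomt1 (0.15, 0.12), Pomt2 (0.41, 0.29), Pomgnt1 (0.33, 0.30), Pomk (0.23, 0.19), B4gat1 (0.50, 0.46), Tmem5 (0.0321, 0.0268) and Slc35d1 (0.0347, 0.0156), and for B3galnt2 under PBS (0.0402, 0.0383). The median of all genes moved with them. Without the filter B4gat1 was at 0.0051 and the median of all genes at 0.19. The Pomk call was also lost without the filter (adjusted p = 0.114) and with sex as a term (0.0555). With 1 library left out, Pomt2 ran from −0.24 to 0.0696, B4gat1 from −0.0859 to 0.0718, and the B3galnt2 difference of TD139 effects from −0.53 to 0.0592. No member was called in the comparisons within the treatment cohort under any alternative run.

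Counts over all genes moved more, and the cause was not tested. The 411 genes of the PBS comparison became 864 with DESeq2, 952 and 814 with limma, 656 with all 18 libraries, 193 with the compared groups alone, and 125 to 601 with 1 library left out. The 160 genes of the genotype comparison under TD139 became 740 with DESeq2, 552 and 296 with limma, 320 without the filter, 431 with all 18 libraries, 432 with the compared groups alone, and 6 to 91 with 1 left out. The 272 genes of the difference between cohorts became 1189 with DESeq2, 75 and 111 with limma, and 0 to 637 with 1 left out, where 0 to 1 member was called. DESeq2 called 4 genes for TD139 in dyW, 3 in WT and 1 for their difference, against 0 by edgeR. Where a WT TD139 library was left out, the lone library was assumed to vary like the other groups. No paired analysis was possible because the replicate numbers were given in accession order and the labels' animal numbers are not shared between groups. Groups held 2 to 4 libraries, and how far read depth limits the precision was not tested.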
